A study of Rattus norvegicus with 8 samples.

Results

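The GABA-A receptor is the chloride channel through which GABA inhibits neurons, and its subunits come from a large gene family. The genes described here encode the beta1, beta2, gamma1, gamma3, delta, epsilon, theta and pi subunits (Gabrb1, Gabrb2, Gabrg1, Gabrg3, Gabrd, Gabre, Gabrq and Gabrp). They were found by matching these 8 symbols to the gene name that the scanner files give each non-control spot, which took 10 of 43379 spots and 8 of 35250 gene names. Gabre and Gabrp have a pair of probes each and every other gene has 1.

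Gene expression was measured in the hippocampal dentate gyrus (DG) of 8 adult female Sprague-Dawley rats of 150 to 200 g. All 8 were ovariectomized (OVX) 1 week before hormone treatment and underwent status epilepticus (SE), a state of continuous seizures, after 16 mg/kg of kainic acid. According to the sample records, SE was stopped with pentobarbital after 5 h. In the oil-injected group (COS, n = 4) the rats received vehicle alone, and in the estradiol-replaced group (CES, n = 4) they received 4 doses of 2 µg of estradiol benzoate at intervals of 24 h, of which 2 preceded and 2 followed SE. The methods of the study give another kainic acid dose, diazepam as the agent that ended SE, all hormone injections before kainic acid and 2 different times of tissue collection, and the files do not settle which applied. Rats without SE were not analysed here, so every difference below is CES minus COS among rats that had SE, and OVX, kainic acid and SE are common to both groups.

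The receptor is a pentamer around a central pore. The usual synaptic form combines alpha and beta subunits, which together form the GABA site, with a gamma subunit, which anchors the receptor at the synapse and completes the benzodiazepine site. Delta replaces gamma in receptors outside the synapse, which in the DG of rodents sit mainly on granule cells together with alpha4, respond to low ambient GABA and are sensitive to neurosteroids. Epsilon and theta are rarer subunits known mainly from the hypothalamus and brainstem, and pi is known mainly from the uterus and other peripheral tissue.

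Each probe is a DNA strand of 60 bases, and the sequences are printed because every value below rests on what these few strands bind. Positions are those that the files give on rn4. The rn4 annotation was not used here, so the exon of each position is not stated. Among the 43 pairs of probes to different genes, the longest stretch shared with at most 1 mismatch was 21 bases, between the Gabrg1 and Gabrq probes, and the next longest was 11. These probes are given whole, with the shared stretch in capitals.
Gabrg1: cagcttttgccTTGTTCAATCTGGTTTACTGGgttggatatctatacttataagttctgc
Gabrq: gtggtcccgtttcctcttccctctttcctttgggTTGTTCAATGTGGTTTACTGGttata
The Gabrg1 probe lies at chr14:39951099-39951158 (+) and the Gabrq probe at chrX:158855889-158855948 (+). Whether either probe also bound the other transcript was not tested.

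The first 30 bases identify the other probes.
Gabrb1: caaggtaccagctctgtaagagttccatca
Gabrb2: ggcctatcctgtggtccatttcataacatt
Gabrd: attagttggcctgtccctgaagctgagcct
Gabrg3: tgtttttccttccatcatccccagacaagt
Gabre, probe b: ttcagttcccttcatctaatgggtatctat
Gabre, probe a: tgtttgtgtgtgagattgttacctatgagg
Gabrp, probe b: gaaagccagcgacaagtttaagtttgtctt
Gabrp, probe a: gagtacacccttgagctaggtgtagttaca
The Gabrb1 probe lies at chr14:38530433-38530492 (-), the Gabrb2 probe at chr10:27819274-27819333 (+) and the Gabrg3 probe at chr1:108189327-108189386 (-). The Gabrd probe is placed at chr5:172203200-172203260 (-), which spans 61 bases. The Gabre probes lie at chrX:158354236-158354295 (+) for b and chrX:158353316-158353375 (+) for a. The Gabrp probes lie at chr10:18454680-18454739 (-) for b and chr10:18453495-18453554 (-) for a.

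A spot counted as valid in a rat when its signal was at least 2 times the local background, and a gene was quantified from spots that were valid in all 8 rats and never marked as outliers. By this rule 20825 genes were quantified, among them 5 of the 8 subunit genes: Gabrb1, Gabrb2, Gabrg1, Gabrd and Gabrq. The probes of Gabrb1, Gabrg1, Gabrd and Gabrq were also marked well above background by the scanner software in all 8 rats. Gabrb2 was valid in all 8 rats but the software marked it well above background in no more than 1 rat of COS and 2 of CES. Valid spots numbered 30690 to 38553 per rat.

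**Figure D1:**
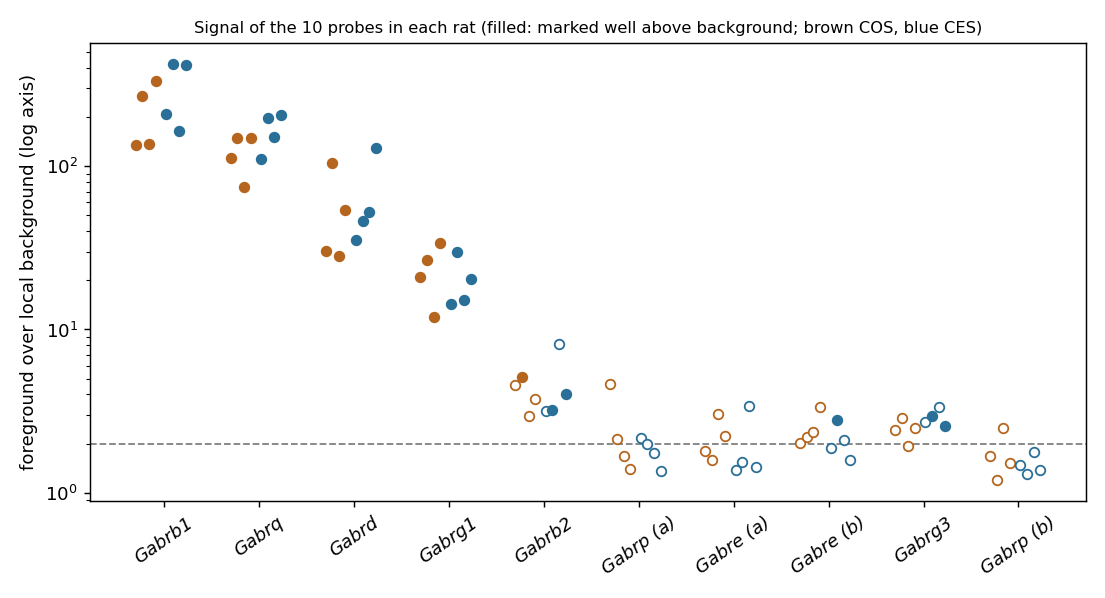
Signal of each of the 10 probes divided by its local background (log axis) in the 4 COS rats (brown) and the 4 CES rats (blue), with filled symbols where the scanner software marked the spot as well above background and a dashed line at the limit of 2. The Gabrb1, Gabrq, Gabrd and Gabrg1 probes are filled in all 8 rats and lie at 11.9 times background or more, whereas the Gabrb2, Gabrg3, Gabre and Gabrp probes lie between 1.19 and 8.09.

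Gabrq and Gabrb1 were higher in CES than in COS, by 1.65-fold and 1.52-fold, and the other quantified genes Gabrd, Gabrg1 and Gabrb2 did not pass the test. None of the 5 was lower, and none had a negative difference with an unadjusted p under 0.05. Levels are given as log2 of the background-subtracted signal relative to the median of its channel, so a difference of 1 is a doubling, and they compare rats for a given probe but not probes with each other. By limma with Benjamini-Hochberg adjustment over the 20825 genes and a threshold of 0.05, 5.74% of all genes (1195) were higher and 28.6% (5957) were lower in CES. Other ways of scaling the channels gave 3023 to 3384 higher and 1783 to 2257 lower genes. The median difference of all genes was -0.25, so each difference is also given relative to that median.

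Gabrb1 encodes beta1, a principal subunit that forms the GABA site with alpha. Its log2 level was 4.38, 4.22, 4.79 and 4.27 in COS replicates 1 to 4 and 5.16, 4.76, 5.18 and 4.96 in CES replicates 1 to 4. The highest COS rat, replicate 3, reached just above the lowest CES rat, replicate 2, and otherwise the CES rats were higher. COS rats averaged 4.41 ± 0.26 (SD, n = 4), while CES rats averaged 5.01 ± 0.20 (SD, n = 4). The 0.60 difference (SE 0.16, 95% confidence interval 0.24 to 0.96) passed the limma test with an adjusted p of 0.0187. Measured from the median gene it was 0.85, and 94.0% of genes had a lower difference. Within the rats labeled with Cy3 it was 0.59 and within those labeled with Cy5 it was 0.61.

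Gabrb2 encodes beta2, the beta subunit of the most common receptor of the adult forebrain. Its log2 level was -1.09, -2.03, -1.77 and -2.99 in the COS rats and -2.26, -2.90, -0.43 and -2.32 in the CES rats. The groups overlapped throughout, and the extremes of all 8 were COS replicate 4 and CES replicate 3. The difference was -0.01 (SE 0.38, 95% confidence interval -0.87 to 0.85, limma adjusted p = 0.987), an interval that leaves room for changes in either direction larger than that of Gabrb1. The probe was close to background, at 2.94 to 8.09 times its local background.

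Gabrg1 encodes gamma1, one of the subunits that can take the gamma position. Its log2 level was 1.93, 0.79, 1.35 and 0.68 in the COS rats and 1.57, 0.90, 1.85 and 1.14 in the CES rats. The values lay within one range, and within each group both Cy3 rats were above both Cy5 rats. The difference was 0.18 (SE 0.18, 95% confidence interval -0.23 to 0.59, limma adjusted p = 0.481). The Cy5 rats lay below the Cy3 rats by -0.91 in COS and -0.69 in CES, a dye effect larger than the difference between the groups and balanced between them.

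Gabrg3 encodes gamma3, another subunit of the gamma position, and was not quantified. Its probe was valid in 3 COS and 4 CES rats, at 1.93 to 3.34 times background. The mark for well above background was given in 0 rats of COS and 2 of CES, and the bound on its fold was under 1, so no fold is given.

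Gabrd encodes delta, the subunit of extrasynaptic receptors on granule cells. Its log2 level was 2.26, 2.67, 2.65 and 1.62 in the COS rats and 2.85, 1.55, 2.53 and 2.97 in the CES rats. CES replicates 4 and 1 were the highest of the 8, but CES replicate 2 was the lowest, close to COS replicate 4. The means were 2.30 ± 0.49 (SD, n = 4) and 2.47 ± 0.64 (SD, n = 4). The difference of 0.18 (SE 0.32, 95% confidence interval -0.54 to 0.89, limma adjusted p = 0.700) was smaller than the spread within either group. Without COS replicate 4 it was -0.03 and without CES replicate 2 it was 0.47, and it passed the test in neither case.

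Gabrq encodes theta. Its log2 level was 3.16, 3.29, 3.28 and 2.89 in the COS rats and 3.69, 3.46, 4.29 and 4.05 in the CES rats. All 4 CES rats were above all 4 COS rats, with a gap of 0.17 between the nearest rats, a separation in that direction seen in 1.55% of all genes. The COS mean of 3.16 ± 0.19 (SD, n = 4) compares with a CES mean of 3.87 ± 0.37 (SD, n = 4). The 0.72 difference (SE 0.21, 95% confidence interval 0.26 to 1.18) passed the limma test with an adjusted p of 0.0245. Measured from the median gene it was 0.97, and 95.7% of genes had a lower difference. It was 0.78 within the Cy3 rats and 0.66 within the Cy5 rats.

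Gabre and Gabrp, which encode epsilon and pi, were not quantified. Of the Gabre probes, b was valid in 4 COS and 2 CES rats and marked well above background in 1 CES rat, and a was valid in 2 COS and 1 CES rats and never marked. Neither Gabrp probe was marked well above background in any rat, and they were valid in at most 2 rats of a group. No fold is given for either gene.

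**Figure D2:**
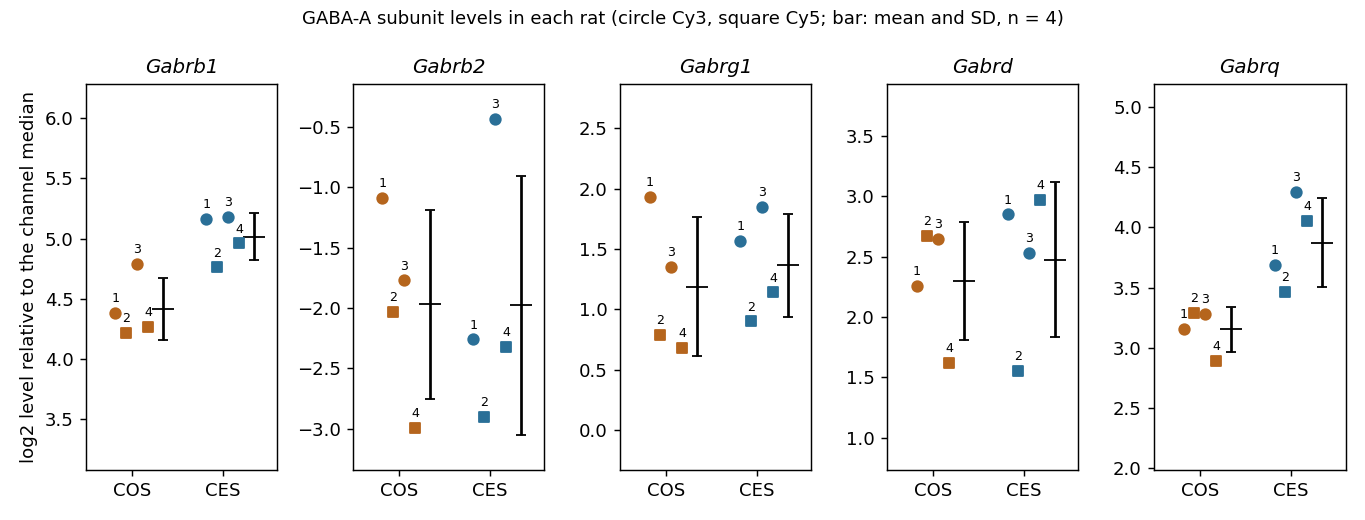
Log2 level of the 5 quantified genes in each rat relative to the median of its channel, with the replicate number above each symbol, circles for Cy3, squares for Cy5, and bars for the mean and SD of the 4 rats; all panels span the same range of log2 units. The CES rats lie above the COS rats without overlap for Gabrq, with an overlap of 0.03 for Gabrb1, and the groups overlap widely for Gabrb2, Gabrg1 and Gabrd.

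Both calls were lost when certain single rats were left out. Left out in turn, COS replicate 1, 3 or 4 raised the limma adjusted p of Gabrb1 to 0.0838, 0.0549 and 0.0530, and that of Gabrq to 0.0792, 0.0876 and 0.0750. Without CES replicate 1 it was 0.0613 for Gabrb1 and 0.0478 for Gabrq. Both calls were also lost with normexp background correction (adjusted p = 0.263 and 0.187), without the filter on valid spots (0.0713 and 0.0833), and that of Gabrq also with the software's own processed signal (0.0693). The methods' t-test gave an unadjusted p of 0.0120 for Gabrb1 and 0.0220 for Gabrq, under the threshold of 0.05 that the methods use without adjustment over all genes. Their fold-change criterion and their correction for redundant spots of a gene were not applied here. After Benjamini-Hochberg adjustment over all genes, which is added here, these became 0.0931 and 0.115. The sign was positive for both genes in all 26 alternatives, with differences from 0.52 to 1.00 for Gabrb1 and from 0.53 to 1.12 for Gabrq. In an exact two-sided permutation test over the 8 rats, p was 0.0286 for Gabrq, the smallest that 70 splits allow, and 0.0571 for Gabrb1.

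**Figure D3:**
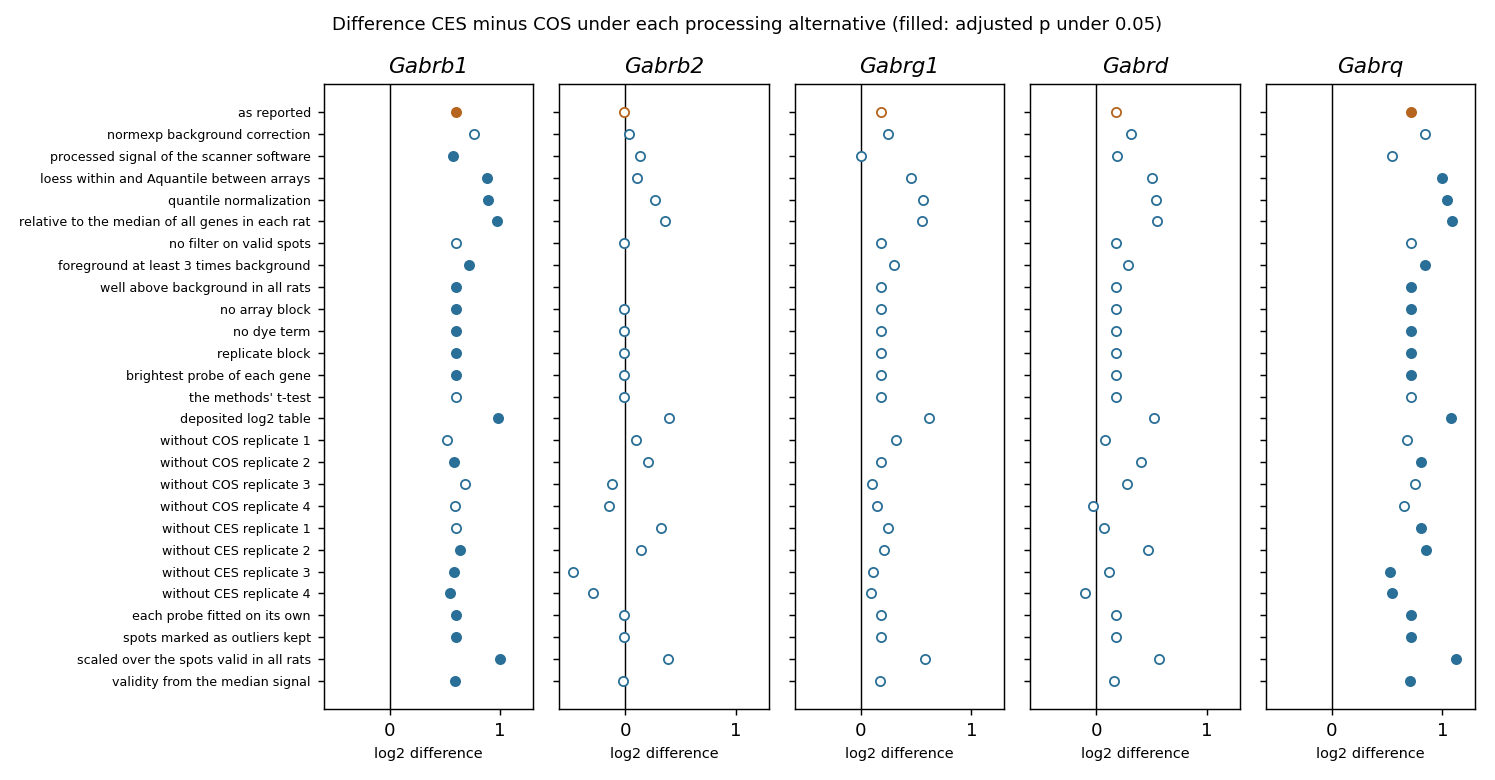
CES minus COS difference (log2) of the 5 quantified genes as reported and under each processing alternative, filled where the adjusted p was under 0.05; Gabrb2 has no value under both stricter filters. All symbols of Gabrb1 and Gabrq lie above 0.5, while those of Gabrb2 range from -0.47 to 0.40 and are never filled.

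CES replicate 2 was the lowest of the CES rats for each of the 5 quantified genes, and COS replicate 4 the lowest of the COS rats for all but Gabrb1. Over all genes their median log2 levels, 0.42 and 0.48, were at or next to the low end of their groups, which ran from 0.25 to 0.79 in CES and from 0.48 to 1.20 in COS. When the level of each gene was centred on its mean over the 8 rats, Gabrb1 and Gabrq were the most alike of the 10 pairs, with a root-mean-square distance of 0.24 on the log2 scale. The least alike were Gabrb1 and Gabrb2, at 0.80. These distances include the difference between the groups and the dye.

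By the same distance, the named genes nearest to Gabrb1 included Atp2b1, a plasma membrane calcium pump, at 0.09, against a median of 0.58 over all genes. The other entries nearest to Gabrb1, at 0.06 and 0.07, carry no gene symbol. The pattern of Gabrg1 was closest to Aif1l, Egflam and Elovl2, a fatty acid elongase, each at 0.11, against a median of 0.47. For Gabrd the nearest were Or2y11, an olfactory receptor, and RGD1564906, both at 0.22, and Gng7, a G protein gamma subunit, at 0.23, against a median of 0.60. For Gabrq the nearest was Or13a27e, an olfactory receptor, at 0.06, and entries without a symbol followed at 0.09, against a median of 0.66. For Gabrb2 the nearest were Or51q1d at 0.19 and unnamed entries at 0.18 and 0.19, against a median of 0.71. Of these entries near Gabrb2, Or51q1d was well above background in 1 rat, and the nearest entry in none.

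Subunit genes of this family lie in clusters, and the order of the genes was read from RefSeq's GRCr8 table. On chromosome 14 the order is Gabrb1, Gabra4, Gabra2 and Gabrg1, with 1 protein-coding gene between Gabra4 and Gabra2 and none elsewhere. Of these, Gabrb1, Gabra4 and Gabra2 were higher in CES, at differences of 0.60, 0.72 and 0.70, and Gabrg1 at the end of the cluster was 0.18. On the X chromosome the order is Gabre, Gabra3 and Gabrq, with Gabre not quantified, Gabra3 at 0.36 (SE 0.21, limma adjusted p = 0.206) and Gabrq at 0.72. Gabrg3 lies next to Gabra5 on chromosome 1, and Gabra5 had a difference of 0.98 (SE 0.20, limma adjusted p = 0.00625). On chromosome 10, Gabra6 and Gabrb2 are consecutive and had differences of -0.04 and -0.01, neither of which passed the test. Whether neighbouring genes differed from each other in their response was not tested.

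**Figure D4:**
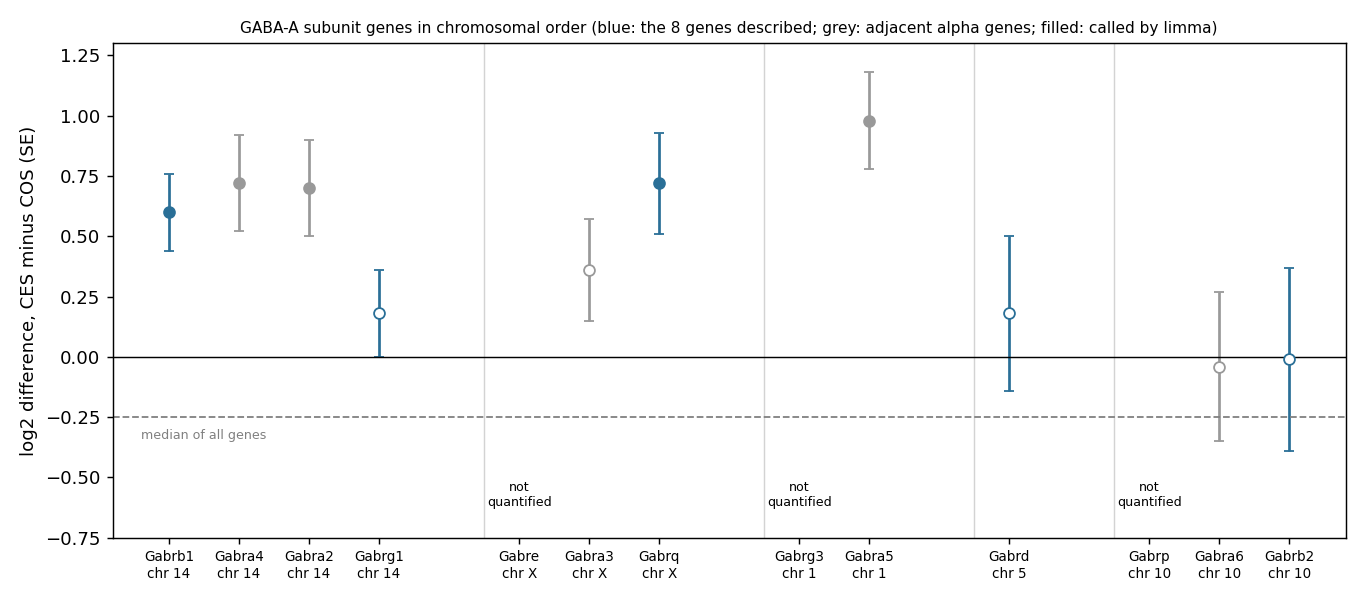
CES minus COS difference (log2, with SE) of GABA-A subunit genes in their order on each chromosome, blue for the 8 genes described here and grey for alpha genes next to one of them, filled where limma called the gene, with the median of all genes dashed at -0.25. Filled symbols are Gabrb1, Gabra4 and Gabra2 on chromosome 14, Gabrq on X and Gabra5 on chromosome 1, all above 0.

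The partner subunits in the receptor are alpha, and rho subunits form related receptors found mainly in the retina. Of 9 alpha and rho genes, 7 were quantified, 3 were higher in CES and 0 were lower, against 5.74% and 28.6% of all genes. No gene of that list with a negative difference had an unadjusted p under 0.05. The median of the 7 was 0.36. Gabra5, which encodes the alpha5 of extrasynaptic receptors in hippocampal pyramidal cells, was 2.83 to 3.29 in COS and 3.36 to 4.31 in CES, without overlap. Gabra4, the usual partner of delta in granule cells, rose by 0.72 (SE 0.20, limma adjusted p = 0.0205) and Gabra2, common at synapses of the forebrain, by 0.70 (SE 0.20, limma adjusted p = 0.0226). For both of these the groups overlapped, at 0.26 to 1.24 against 0.89 to 1.83 for Gabra4 and at 0.40 to 1.01 against 0.57 to 1.94 for Gabra2. Their calls were lost under the same alternatives as that of Gabrb1.

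Proteins that hold these receptors at inhibitory synapses or carry them to the membrane were described as a further list of 29 genes. Of these, 25 were quantified, 0 were higher and 5 were lower, against 28.6% of all genes lower, and the median of the 25 was -0.03. This tally depended on the scaling, since the 5 other scalings of the channels called 3 to 5 genes of the list higher and 1 to 2 lower. Those that fell in the scaling used here were Gabarap, which binds gamma subunits, by 0.65, the kinesin heavy chains Kif5b, by 0.62, and Kif5c, by 0.83, Ubqln1, a ubiquitin-like protein that binds receptor subunits, by 0.94, and Zdhhc3, a palmitoyltransferase, by 0.68. Their limma adjusted p ran from 0.00574 to 0.0215, and they lay between -0.37 and -0.68 once the median of all genes was subtracted. Gphn, which encodes gephyrin, the main scaffold, had a difference of 0.34 (SE 0.16, limma adjusted p = 0.128). In all, 1 gene of the list had a positive difference with an unadjusted p under 0.05.

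The tissue is labeled DG, and some cell type markers moved with the same comparison. Over all genes 5.74% were higher and 28.6% were lower. The marker calls were not repeated under the other scalings, in which fewer genes were lower. In tissue RNA, fewer cells of a type and less RNA per cell cannot be told apart. Of 6 granule cell markers, 5 were quantified and 4 were lower in CES (C1ql2, Dsp, Tdo2 and Trpc6). Their summed level ran from 14.2 to 25.4 times the channel median in COS and from 9.9 to 14.2 in CES. Prox1, the defining granule cell marker, was never well above background, nor was Tdo2. Of 6 markers of CA1 to CA3 pyramidal cells, 4 were higher (Amigo2, Fibcd1, Pou3f1 and Wfs1). The Fibcd1 signal was low, at a mean log2 level of -2.90 ± 1.03 (SD) in COS and -1.92 ± 0.60 (SD) in CES. Pcp4 and Rgs14 were not called, at differences of -0.05 and -0.11. The summed level, to which Pcp4 and Rgs14 contributed most, was 81.0 to 118.3 in COS and 89.0 to 122.0 in CES. Pou3f1 rose most of the 6, by 2.23 (SE 0.28, limma adjusted p = 0.00306). The part of the cell makeup of the samples in the differences of Gabrb1 and Gabrq was not tested.

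Of 6 interneuron markers, 3 were lower (Npy, Sst and Vip), against 28.6% of all genes. Gad1, Gad2 and Pvalb were not called, at differences of -0.57, -0.58 and 0.51. The summed level, to which Npy and Sst contributed most, was 343.8 to 546.7 in COS and 98.0 to 282.1 in CES. Of 5 microglial markers 3 were lower (summed level 30.0 to 46.3 in COS against 16.6 to 24.2 in CES). Of 3 quantified endothelial markers 2 were lower (31.3 to 43.5 against 14.2 to 31.8). Both counts stand beside 28.6% of all genes lower. The 4 astrocyte markers did not move together. Aldh1l1 rose by 1.23 (SE 0.24, limma adjusted p = 0.00597), whereas Gfap had a difference of -1.22 (SE 0.44, limma adjusted p = 0.0531) and was not called. The summed level of the 4, to which Gfap contributed most on average, was 64.3 to 81.4 in COS and 35.5 to 73.7 in CES. None of 4 quantified choroid plexus and 4 oligodendrocyte markers was called. The choroid plexus sum ran from 13.2 to 625.2 in COS and from 16.1 to 199.9 in CES, and that of oligodendrocytes from 187.7 to 356.7 and from 258.4 to 411.9. Of 3 thalamic markers only Prkcd was lower, against 28.6% of all genes. Lef1 and Tcf7l2 were not called, at differences of -0.42 and 0.07. The summed level of the 3, to which Prkcd contributed most, was 10.3 to 19.0 in COS and 3.1 to 10.1 in CES. The part of these cell types in the results was not tested either.

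**Figure D5:**
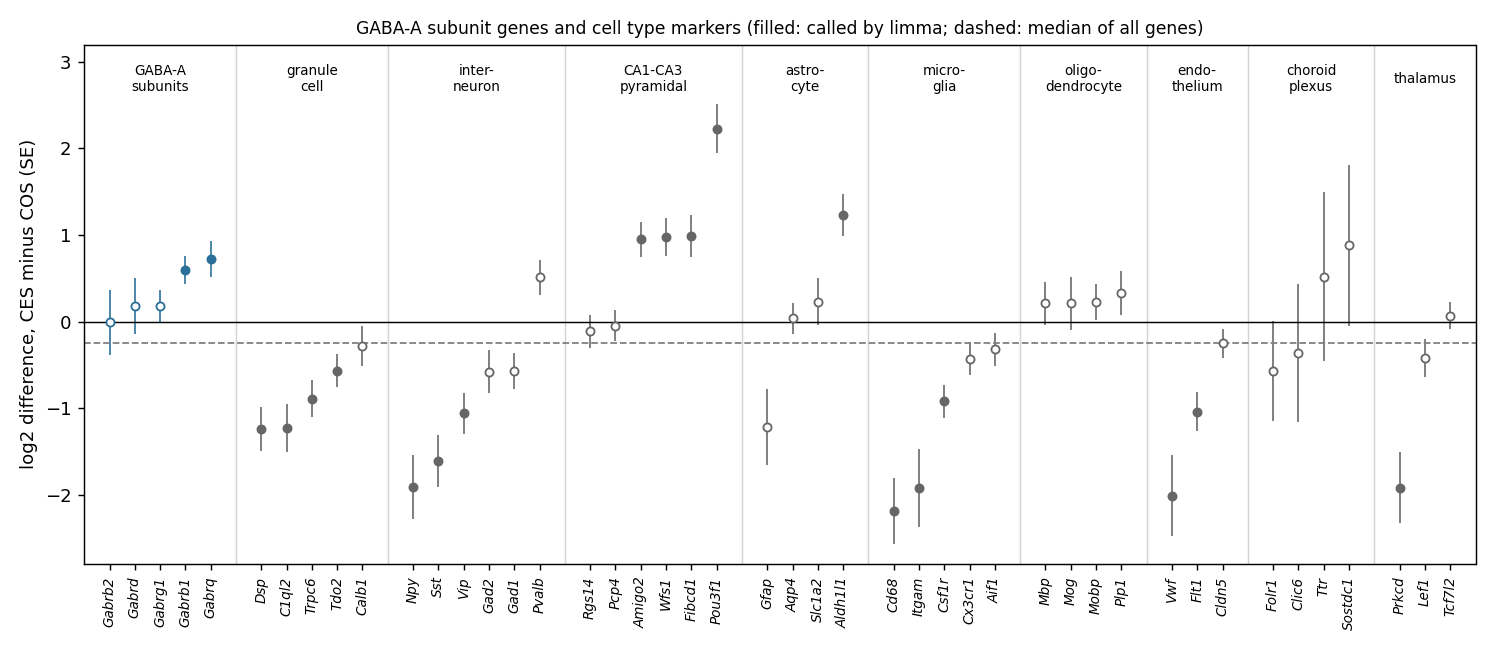
CES minus COS difference (log2, with SE) of the 5 quantified subunit genes (blue) and of the cell type markers (grey), filled where limma called the gene, with the median of all genes dashed at -0.25. The filled markers of CA1 to CA3 pyramidal cells lie above Gabrb1 and Gabrq, while Pcp4 and Rgs14 of that list are open and just below 0. The filled markers of granule cells lie below 0.

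Promoter sequence of 7 of the 8 genes was read from RefSeq's GRCr8 table, as windows of 250 bases before to 50 bases after each start. Estrogen receptors bind a palindrome, the estrogen response element, and its letters, GGTCA and TGACC with 3 bases between them, were found on either strand in 0 of the 7 windows and in 0.0269% of all 33469 windows. Its arm GGTCA, which is part of the palindrome, was present in 2 (Gabrb2 and Gabrq), against 40.5% of all windows. The GC box GGGCGG was present in 4 (Gabrd, Gabre, Gabrg3 and Gabrq), against 33.1%. The AP-1 letters TGANTCA and the cAMP response element TGACGTCA were found in 0 of the 7, against 7.33% and 1.83%. A match describes letters in the window and is not evidence of binding.

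The 250 bases before the start are printed for Gabrb1 and Gabrq, the subunit genes that were higher in CES, with motif matches in capitals. The Gabrb1 window holds none of the motifs and the Gabrq window holds GGTCA and 4 GC boxes.
Gabrb1, GRCr8 chr14:36902894-36903143 (-): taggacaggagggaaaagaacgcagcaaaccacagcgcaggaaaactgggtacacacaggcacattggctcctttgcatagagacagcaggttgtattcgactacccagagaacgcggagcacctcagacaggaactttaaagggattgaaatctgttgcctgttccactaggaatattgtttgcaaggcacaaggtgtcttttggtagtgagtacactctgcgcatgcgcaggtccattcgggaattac
Gabrq, GRCr8 chrX:155738186-155738435 (+): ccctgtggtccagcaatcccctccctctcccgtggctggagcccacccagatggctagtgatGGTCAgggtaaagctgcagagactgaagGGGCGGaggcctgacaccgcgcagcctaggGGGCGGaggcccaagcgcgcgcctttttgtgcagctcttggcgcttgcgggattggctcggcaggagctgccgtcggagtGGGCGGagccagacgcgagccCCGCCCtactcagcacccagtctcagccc
The share of G and C in the windows of 300 bases was 49.3% for Gabrb1 and 68.3% for Gabrq, beside a median of 51.7% over all promoters.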

How the data were processed

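Each of the 4 arrays, all on 1 slide, was hybridized with DG total RNA of 2 rats of the same group, one in Cy3 (replicates 1 and 3) and the other in Cy5 (replicates 2 and 4). The authors deposited the scanner files of Agilent Feature Extraction 10.7.3.1, with an intensity per spot and channel and that of the background around it. They also deposited a table of log2 values, computed from the median signal of a spot after subtraction of its background and centred so that each column has a median of 0.

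As in the first steps of the study's methods, background was subtracted from the mean signal of each spot and the result scaled to the median of valid spots in that channel. Spots valid in every rat and never marked as outliers (26294) were averaged per gene, and the mean was taken to log2. The iterative renormalization across labels and conditions that the methods describe was not run, and the methods do not say whether they start from the mean or the median signal of a spot. For 17512 of 41012 probes the gene symbol came from a match of the RefSeq accession to the GRCr8 table, and the other probes kept the name in the files.

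The groups were compared in R 4.3.3 with limma 3.58.1, with dye as a fixed term and array as a random block (duplicateCorrelation, statmod 1.5.0, correlation -0.010). The array is nested in the group and cannot enter as a fixed term. Tests were two-sided, p-values were adjusted by Benjamini-Hochberg over all genes, and 0.05 was the threshold. The script was tested on simulated data. Alternatives covered background correction, scaling, filters, model terms, the test and each rat left out. The number of arrays limits the precision, and the median SE of a difference was 0.20. Labels do not tie replicate numbers across groups. Deviations of same-numbered rats correlated at 0.21 to 0.35, which fell to between -0.06 and -0.04 once the dye they share was removed, so the numbers were not taken as pairs.

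The genes and lists were chosen with earlier results of these data known. The genes named are the 8 subunit genes, the 3 nearest genes to each quantified one, called genes of the alpha and rho and the scaffold lists, and markers as lists. Gphn and the alpha genes given for their place on a chromosome were named after their values were seen. Values of some other genes of the lists are not reported here.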

Additional observations from a re-analysis of the deposited data

How the results depend on the processing

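The median difference of all genes depended on the scaling, at -0.25 as reported and between 0.04 and 0.14 with loess and Aquantile, quantile normalization, each rat relative to its median gene, the deposited log2 table, or a scaling based only on spots that every rat had valid. With these 5 alternatives the genes called higher numbered 3252, 3023, 3112, 3213 and 3384, against 1195 as reported, and those called lower 2208, 2257, 1894, 1927 and 1783, against 5957. Of the scaffold and trafficking list they called 5, 3, 3, 4 and 3 genes higher and 2, 2, 1, 1 and 1 lower. Gabra3 passed the test under the last 4 of them (adjusted p from 0.0302 to 0.0352).

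With normexp 139 genes were higher and 492 lower, and 0 of the 8 subunit genes, 0 of the alpha and rho list and 0 of the scaffold list were called. Without the filter on valid spots 403 were higher and 2820 lower, with 0 of the 8 genes, 1 of the alpha and rho list higher and 2 of the scaffold list lower. The methods' t-test put 5909 genes, Gabrb1 and Gabrq among them, under an unadjusted p of 0.05. The methods use this threshold together with a fold-change criterion and a correction for redundant spots, neither of which was applied here. With the Benjamini-Hochberg adjustment over all genes added here, the t-test called 0 genes in any list. A foreground of at least 3 times background gave 2811 lower genes and 2 lower of the scaffold list. Requiring well above background in all rats gave 8 lower and 1 higher of the scaffold list, and the fit without the dye term gave 1 higher. The processed signal called 1 of the 8 genes and the exact permutation test 1. Relative to the median of all genes, Gabrb1 lay between 0.78 and 0.94 and Gabrq between 0.82 and 1.13 in all 26 alternatives.

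With each rat left out in turn, 285 to 1812 genes were higher and 1142 to 6954 lower, 0 to 2 of the 8 subunit genes were higher and 0 lower, 1 to 3 of the alpha and rho list were higher and 0 lower, and 0 to 2 of the scaffold list were higher and 1 to 6 lower. Fewest genes were called without COS replicate 3. With the replicate block in place of dye and array, 2 of the 8 genes were higher, with an adjusted p of 0.0190 for Gabrb1 and 0.0293 for Gabrq, and the block changed no call of these 8 or of the alpha and rho list. The scaling over commonly valid spots, keeping outlier spots and judging validity from the median signal were chosen after seeing the data. The last pair called 2 of the 8 genes higher, as reported. The causes of these shifts were not tested. For Gabrb2, Gabrg3, Gabre and Gabrp the signal over background limits what can be seen.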
